A study of Rattus with 18 samples.

Results

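The cytosolic ribosomal protein genes were followed in rat glomeruli over the 5 days after an antibody against Thy1. Members were chosen by name: a gene name that begins with Rpl or Rps and goes on with a number, with no control spot, and with the older suffixes of the array design removed. The array held 79 such genes on 122 probes, among 35071 gene names. Of these, 78 passed the filter on dim probes, which left 23198 gene names to test. Rpl39l did not pass, and no value is given for it. Each gene was represented by its brightest probe.

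The study injected 30 Sprague-Dawley rats (strain label SD, 200 g) with an anti-Thy1 antibody and 6 rats with saline. Thy1 lies on rat mesangial cells, the contractile cells between the glomerular capillaries. The 6 groups were saline at day 0 and anti-Thy1 at days 1, 2, 3, 4 and 5, with 3 single-colour arrays each, so n = 3 in every group. Per the labels, glomeruli came from 6 rats per time point; which rats stand behind an array is not stated, so the tests rest on the spread among the arrays of a day, part of which may be technical. No saline group accompanied days 1 to 5, so the effect of the antibody and that of time or procedure cannot be told apart.

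Ribosomal proteins coat and stabilise the RNA core of the ribosome. Those of the large subunit (Rpl) surround the centre that joins amino acids, and those of the small subunit (Rps) surround the site where messenger RNA is read. Their genes are transcribed strongly in nearly all cells, and their messenger RNAs are controlled together at translation through a pyrimidine-rich start that responds to TOR signalling. Many processed pseudogenes resemble these genes closely, so a probe cannot separate a member from a near-identical copy.

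The probes of the members that the results turn on are given from the array files, 5′ to 3′, with rn4 positions. The first 3 are shown by their last 30 bases because they hold the hexamer AATAAA, the common signal for the end of a messenger RNA, in capitals. Rps26 (chr7:1919153-1919182, minus strand), Rpl34 (chr2:228146292-228146321, minus strand) and Rps27a (chr14:110559625-110559654, minus strand) read:
Rps26: catggaaaAATAAAactgaagttatacttt
Rpl34: cttttttaagtAATAAAaatcaagacttcg
Rps27a: gtgtatgagttAATAAAgagaaggaactga

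The next probes are shown whole because their genes parted from the rest of the family. Rpl10l lies at chr6:87930391-87930450 (minus strand), Rpl15 at chr15:9082880-9083180 (plus strand) and Rps15 at chr7:10928409-10928778 (minus strand). The last pair of positions span 301 and 370 bases, more than the 60 of a probe. Capitals mark the start codon of Rps15, at base 20 of its probe.
Rpl10l: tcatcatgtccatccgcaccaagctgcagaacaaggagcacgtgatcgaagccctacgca
Rpl15: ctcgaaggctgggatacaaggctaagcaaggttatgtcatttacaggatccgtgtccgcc
Rps15: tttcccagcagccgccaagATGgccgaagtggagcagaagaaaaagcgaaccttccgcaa

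Rps25 had a pair of probes over the same 60 bases (chr8:47375104-47375163) on opposite strands. They are shown because they moved in opposite directions.
Rps25, plus strand: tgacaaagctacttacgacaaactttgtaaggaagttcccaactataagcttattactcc
Rps25, minus strand: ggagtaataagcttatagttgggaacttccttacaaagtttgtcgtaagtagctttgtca

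On day 1 replicate 4, 55.2% of probes were well above background, and on the other 17 arrays 63.6% to 69.6% were. No spot was saturated. The local background reached 65258 on day 1 replicate 1 and 62787 on day 5 replicate 5, at a few spots each, against at most 2003 on the other arrays. The 78 members used were well above background on all 18 arrays. The 75th percentile of the signal, by which each array was scaled, lay between 180.7 and 229.2 on the controls and between 251.9 and 452.4 on the other arrays. Days 0, 1, 3 and 5 were scanned on one day (slides 1 to 3) and days 2 and 4 on another (slides 4 and 5), so for the latter scan day and time point cannot be told apart. All 3 controls shared slide 1 with 1 array of day 1.

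Most ribosomal protein genes were higher after the antibody on every day. Levels below are log2 signal minus the array's 75th percentile, and changes are differences in that quantity from the day 0 mean. The median of the 78 members on an array was 6.46, 5.77 and 6.31 on the controls (replicates 2, 4 and 5). It was 6.78, 7.04 and 6.89 on day 1, 6.86, 6.93 and 6.77 on day 2, and 7.26, 7.14 and 6.70 on day 3. On day 4 it was 6.82, 7.15 and 7.18, and on day 5 it was 6.90, 6.78 and 7.25. The 3 controls were the lowest of the 18 arrays, and the anti-Thy1 days overlapped each other.

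**Figure D1:**
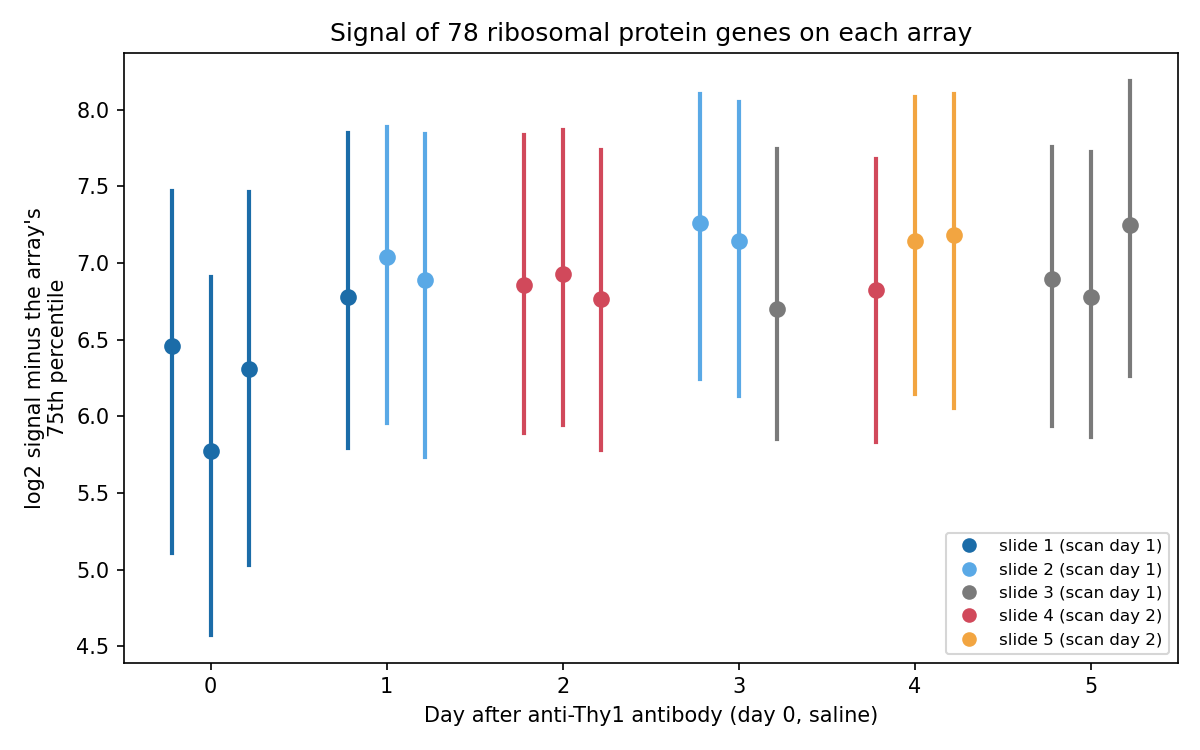
Points show the median of the 78 members on each array (log2 signal minus the array's 75th percentile, vertical axis) by day after the antibody (horizontal axis), and lines run from the lower to the upper quartile of the members. Colours give the slide; the controls lie at 5.77 to 6.46 and the 15 other arrays at 6.70 to 7.26.

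By limma's moderated test with Benjamini-Hochberg adjustment over all 23198 genes, 63 of 78 members rose on day 1 and none fell, where 19.2% of all genes were called higher. On day 2, 60 rose and none fell (20.8% of all genes were called higher). Day 3 had 67 that rose and none that fell (21.7% of all genes higher), day 4 had 72 and none (25.5%), and day 5 had 65 and none (20.9%). Genes called lower made up 20.7%, 25.1%, 26%, 26.7% and 23.3% of all genes on days 1 to 5. Members with an unadjusted p under 0.05, in either direction, numbered 71, 69, 69, 72 and 68. The moderated F-test over the 6 time points called 65 members, against 53% of all genes. On all 5 days 52 members were called, and 3 (Rpl35, Rps15 and Rps27) were called on none. The 5 comparisons share the same 3 controls, so their calls are not independent. For these counts and the unadjusted ones the share of all genes is not given. For 60 members each of the 15 anti-Thy1 arrays lay above each of the 3 controls, which held for 11.4% of all genes.

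The changes were moderate in size and close to each other. The median change of the members was 0.68 on day 1 (a fold of 1.60), 0.67 on day 2 (1.59), 0.78 on day 3 (1.71), 0.81 on day 4 (1.76) and 0.75 on day 5 (1.68). Across all genes the median changes were 0.06, 0.04, -0.02, 0.05 and 0.06. The range from the lower to the upper quartile of the members was 0.56 to 0.81 on day 1 and 0.65 to 1.04 on day 4, so most members moved by amounts that the standard errors of single genes, near 0.2, do not separate. Both subunits took part to a like extent: on day 4, 44 of 48 genes of the large subunit rose (median change 0.89) and 28 of 30 of the small subunit (0.78). Day 1 medians were 0.68 for each.

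The size of the rise depended on 1 control and on the scaling. Control replicate 4 was the lowest control for 76 of 78 members; without it, 30, 33, 58, 57 and 45 members rose on days 1 to 5, with median changes of 0.48, 0.50, 0.59, 0.64 and 0.56. Scaled to the mean of 11 housekeeping genes, 19, 25, 43, 27 and 40 members rose, and after quantile normalization 17, 27, 46, 32 and 27. Of these 11 genes 6, 9, 6, 9 and 7 rose on days 1 to 5 in the reported setting, and 1 fell on each day. Their daily median change was 0.47 to 0.67, where 19.2% to 25.5% of all genes were called higher. Scaled to the array median, 76, 77, 76, 77 and 74 rose. Background correction by normexp left 0, 4, 5, 14 and 0 called, and 72, 74, 73, 76 and 68 once the local background, very high at a few spots, was capped. With the slide as a block, 12, 9 and 0 were called on days 1, 3 and 5 (median changes 0.59, 0.83 and 1.09). These changes rest on day 1 replicate 1, the only array on slide 1 beside the controls. For day 5 they rest also on day 3 replicate 4, the only day 3 array on slide 3. On slide 1 itself, the day 1 array stood at 6.78 against 5.77 to 6.46 for the controls. The share of all genes called under each of these settings is not given here, so the counts stand without that background. None of these settings made the median of the members negative on any day. The gap between the median of the members and that of all genes, which a single scaling number per array leaves in place, was 0.62, 0.62, 0.80, 0.76 and 0.69. Other processing moved this gap: it was 0.21, 0.27, 0.41, 0.29 and 0.22 after quantile normalization, and 0.084, 1.02, 1.05, 1.19 and 0.17 with normexp.

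**Figure D2:**
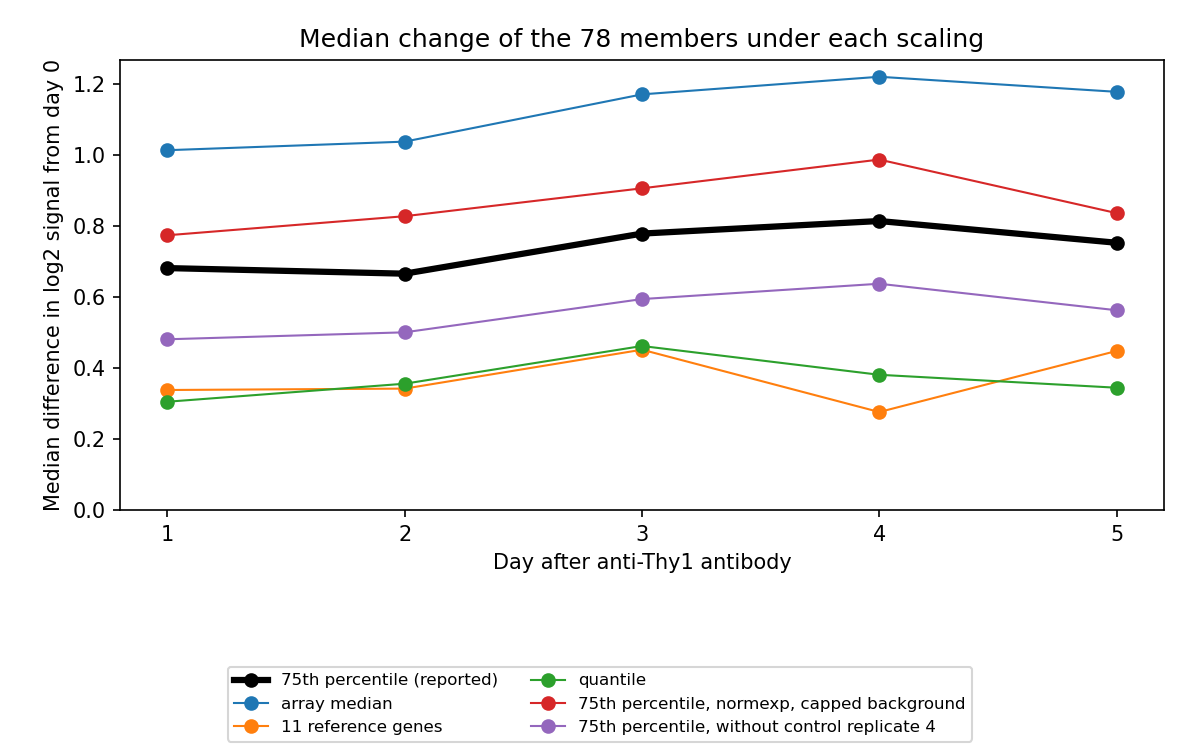
The median change of the 78 members against day 0 (difference in log2 signal, vertical axis) is drawn by day (horizontal axis) under 6 settings, 1 line each. The reported setting runs between 0.67 and 0.81; the lowest value is 0.28 (reference genes, day 4) and the highest is 1.22 (array median, day 4).

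Signal strength moved with the changes. Among all genes split into 5 classes by signal, the dimmest class had a median change of -0.64 on day 1 and the brightest 0.43, and the brightest class held 74 of the members. The 840 other genes with a mean level of 4.79 or more had median changes of 0.51, 0.37, 0.37, 0.61 and 0.55. Of them, 47.5%, 34.8%, 40.6%, 59.4% and 52.5% were called higher. That set has no upper limit, so it was not matched to the members in level. Within the family the order was the other way: the 17 members with a mean level of 8 or more had a median change of 0.56 on day 4, and the 27 at 4 to 6.5 had 0.95. The part of signal strength in the family's rise was not tested. In bulk glomeruli, a change in the mix of cells and a change in RNA per cell cannot be told apart.

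Rps13 and Rps4x were small-subunit genes with large rises. Rps13, a core protein of the small subunit, was among the largest rises of day 3. Its level was 5.10, 4.33 and 4.95 on the controls and 6.35, 6.22 and 5.85 on day 3, a change of 1.34 ± 0.24 (SE, n = 3, limma adjusted p = 0.0009028). Rps4x, the X-linked form of Rps4, went from 4.40, 3.95 and 4.33 on the controls to 5.24, 5.76 and 5.67 on day 4 (1.33 ± 0.24, adjusted p = 0.0005932). For both genes the day 3, 4 and 5 arrays lay above all controls. Rps6 is the substrate of the S6 kinases and was added to the named genes for that role. Its level was 8.25, 7.65 and 8.13 on the controls and 9.03, 8.87 and 8.39 on day 3, a change of 0.75 ± 0.20 (adjusted p = 0.007819), near the family median.

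In the large subunit, Rpl15 had the largest rise of day 3 and of day 5. Rpl15 lies deep in the subunit and is needed to mature its RNA. Its level was 4.96, 4.14 and 4.83 on the controls. It was 5.89, 6.16 and 5.61 on day 1, 5.95, 6.12 and 5.93 on day 2, 6.53, 6.48 and 6.07 on day 3, 5.88, 6.41 and 6.29 on day 4, and 6.02, 5.87 and 6.61 on day 5. All 15 arrays after the antibody were above the highest control. The day 3 change was 1.72 ± 0.25 (limma adjusted p = 0.0005318). Against the family median, Rpl15 rose further by 0.52 on day 1 and 0.86 on day 3. Its second probe, which was far dimmer, gave smaller changes of 0.38 to 0.78.

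Rpl3 and Rpl4, proteins of the large subunit's core, were among the other large rises. Rpl3 stood at 3.61, 3.05 and 3.51 on the controls and at 4.45, 5.02 and 4.86 on day 4, a change of 1.39 ± 0.23 (limma adjusted p = 0.0004219). Rpl4 stood at 3.44, 3.22 and 3.35 on the controls and at 4.89, 4.69 and 4.42 on day 3, a change of 1.33 ± 0.18 (adjusted p = 0.0004405). Neither overlapped the controls on these days. Rpl5 and Rpl11, which carry 5S ribosomal RNA and can bind Mdm2, were added for that role. Rpl5 rose by 1.07 ± 0.22 on day 4 (adjusted p = 0.001296) and Rpl11 by 0.66 ± 0.19 (adjusted p = 0.009747).

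**Figure D3:**
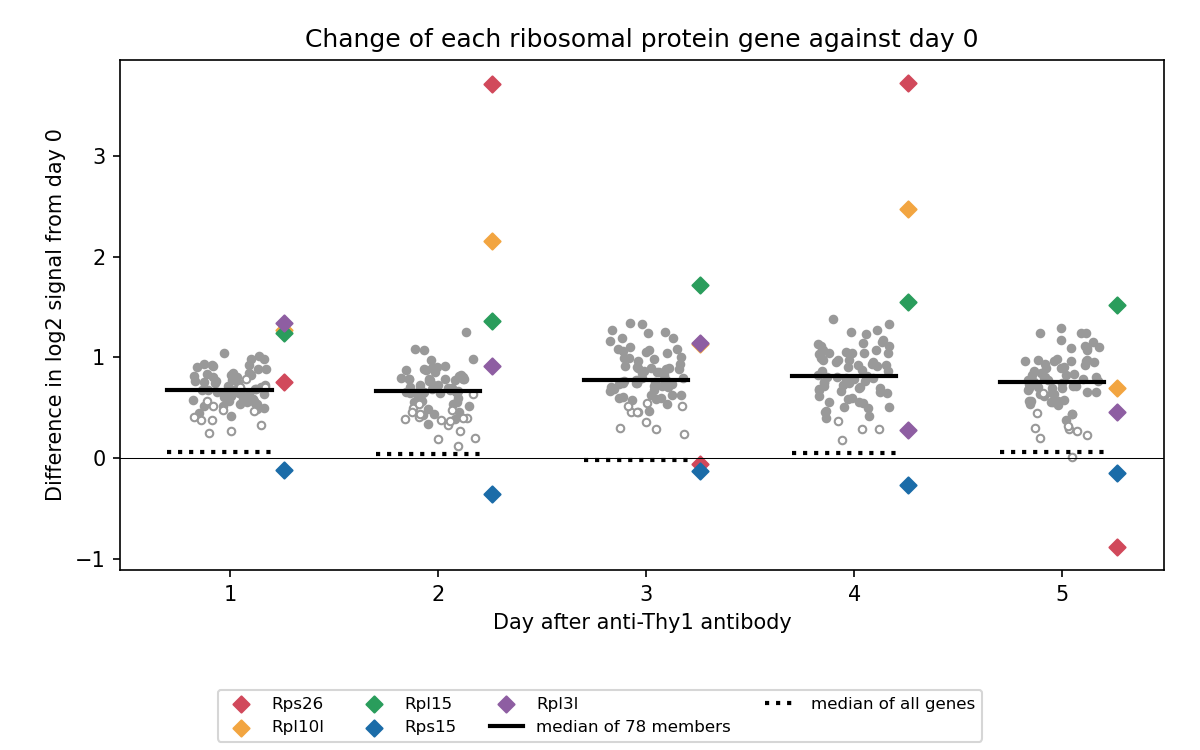
Each point is the change of 1 of 78 members against day 0 (difference in log2 signal, vertical axis) by day (horizontal axis); filled grey points passed the test (adjusted p under 0.05), open ones did not, and diamonds mark named members whatever their test. Solid bars are the medians of the members (0.67 to 0.81) and dotted bars those of all genes (-0.02 to 0.06).

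Rps15 stood apart at the lower end. Rps15 is a small-subunit protein at the site where transfer RNA is held. Its level was 4.48, 4.35 and 4.50 on the controls, 4.00, 4.10 and 4.88 on day 1, 4.48, 3.93 and 3.85 on day 2, 4.51, 4.57 and 3.86 on day 3, 3.98, 4.27 and 4.29 on day 4, and 3.99, 4.49 and 4.40 on day 5. The controls lay within the range of the other arrays. Its changes were -0.12, -0.36, -0.13, -0.26 and -0.15 with an SE of 0.25, and none passed the test (limma adjusted p from 0.2626 to 0.7286). Scaled to the array median, the 5 values were above 0 (0.02 to 0.27) and again did not pass.

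With each array centred on the family median, Rps15 was lower by 0.84, 1.03, 0.99, 1.14 and 0.95 on days 1 to 5. The direction of these deviations is not affected by a scaling number per array. Rpl35 and Rps27, the others called on no day, had changes of 0.20 to 0.29 and 0.19 to 0.37. The named Rps15 probe covers the start codon. A probe listed under an Ensembl transcript, which shares 30 bases in reverse complement with the second Rps15 probe, read 5.29, 4.57 and 5.18 on the controls and 6.33, 6.20 and 5.77 on day 3. It was higher than day 0 by 0.84 to 1.10, like the rest of the family. The second Rps15 probe itself, tested in its own row, changed by -1.24 to -1.47 over the 5 days. It was called lower on each day (limma adjusted p from 0.003323 to 0.01401). The probes near this gene's sequence thus differed, and the second Rps15 probe is among the dimmer opposite-strand probes described next.

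Probes on the opposite strand of member genes moved the other way. A pair was 2 probes of which one shares at least 25 bases with the reverse complement of the other. The search was added after values were seen. It found 16 pairs in which either probe bears a member's name, with 16 brighter probes and 12 dimmer ones. In 16 of 16 pairs the brighter probe was higher than day 0 and the dimmer one lower, on each of the 5 days. The medians of the dimmer probes were -1.04, -1.27, -1.38, -1.43 and -1.23.

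The median level of the 12 dimmer probes was 1.13, 1.71 and 1.12 on the controls and -0.20 to 0.98 on the 15 other arrays. The highest of the latter was day 1 replicate 5, and control replicate 4, the lowest for the members, was the highest here. Tested with each probe in its own row (27836 probes), 11 of the 12 dimmer probes fell on day 1, where 21.4% of all probes were called lower. On days 2 to 5, 12 of 12 fell (25.7%, 27.1%, 27.4% and 24.3% of all probes). Without control replicate 4, 5, 11, 9, 12 and 9 fell on days 1 to 5, with medians between -0.85 and -1.17. The share of all probes called lower without that control is not given here, so these counts stand without that background. Scaled to the array median, the day medians ran from -0.70 on day 1 to -1.0 on day 4.

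A fall of the dimmer probe was not particular to ribosomal protein genes. Of 611 other opposite-strand pairs on the array, the dimmer probe was lower than day 0 in 90.5%, 90.3%, 91.2%, 90.7% and 91.3% on days 1 to 5. In 439, 448, 419, 450 and 456 of these 611 pairs the brighter probe was higher as well, against 16 of 16 member pairs. Among 596 dimmer probes of other genes tested one by one, 55.7% to 66.1% were called lower. The median level of these 596 probes was -3.28 to -1.77 on the arrays. Genes of the 2 dimmest of the 5 signal classes had median changes of -0.64 and -0.32 on day 1, so most of them also lay below day 0. The difference between the controls and the other arrays on opposite-strand probes was thus not confined to member genes. How far it goes with dim signal was not tested, nor was its part in the family's rise.

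Rps25 showed this on identical bases, with the sequences given above. The plus-strand probe read 4.86, 4.22 and 4.82 on the controls, 5.28, 5.33 and 5.36 on day 1, and 5.60, 5.44 and 5.12 on day 3. The minus-strand probe read 3.50, 3.74 and 3.55 on the controls, 2.07, 2.15 and 3.49 on day 1, and 2.03, 2.40 and 2.22 on day 3. On day 3 neither probe's arrays overlapped the controls, and they moved in opposite directions. Day 1 replicate 5 was at the control level on the minus strand and with its own day on the plus strand. The plus-strand changes over the 5 days were 0.64 to 0.87, and the minus-strand changes were -1.03 to -1.43.

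Rpl37 and Rpl21 also had probes that differed in sign. Rpl37, a zinc-binding protein of the large subunit, rose by 0.69 to 0.90 on its used probe, while its second probe read 0.51, 2.61 and 0.60 on the controls and -1.38, -1.26 and -1.28 on day 3. That second probe changed by -2.04 to -2.74. Of the 7 Rpl21 probes, 5 were higher on every day (0.55 to 1.20), and the other two, both much dimmer, were lower by 1.33 to 2.07. For the other 29 of 32 members with several probes past the filter, the probes had the same sign on each day. For Rps15 that sign was negative, but its second probe is among the dimmer opposite-strand probes, all of which were lower than day 0.

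**Figure D4:**
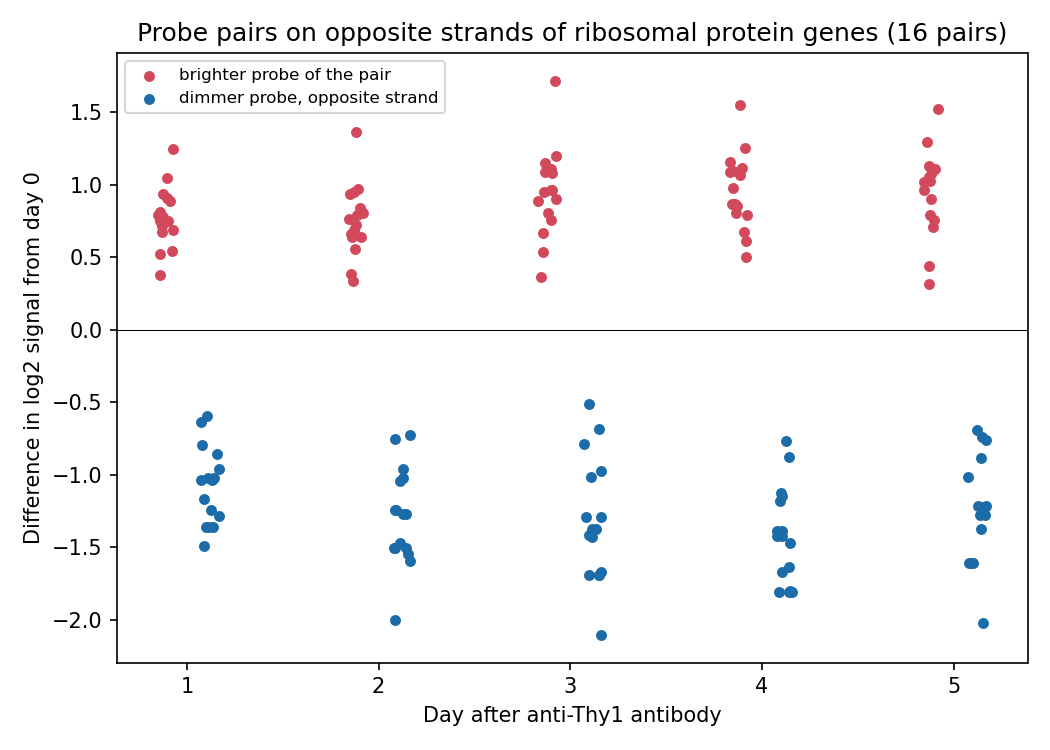
For 16 pairs of probes on opposite strands of ribosomal protein genes, the change of the brighter probe (red) and of the dimmer probe (blue) against day 0 is drawn by day (horizontal axis; vertical axis, difference in log2 signal). All brighter probes lie above 0 and all dimmer probes below 0; a dimmer probe that belongs to several pairs is drawn once for each.

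Between days after the antibody, the family did not separate. Day 3 against day 1 called 0 members by limma's adjusted test, with 1 at an unadjusted p under 0.05 and 0.00431% of all genes called. Day 5 against day 1 called 0, with 2 unadjusted (0.125% of all genes). Day 4 against day 2 called 0, with 3 unadjusted (0.0991%). The median differences of the members were 0.13, 0.08 and 0.17. Each of these comparisons lies within 1 scan day.

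Rps26 was the member that differed most from the rest. Rps26 sits at the messenger RNA exit channel of the small subunit. Its pattern was known before this description, so the values carry no test. The level was -1.43, -1.23 and -0.58 on day 0, -0.96, -0.30 and 0.29 on day 1, and 2.75, 2.71 and 2.44 on day 2. It was 0.12, -0.42 and -3.10 on day 3, 2.40, 2.84 and 2.70 on day 4, and -1.96, -1.90 and -2.02 on day 5. Days 2 and 4 lay far above all other arrays, with a gap of 2.12 between the lowest of these 6 and the highest of the other 12. Day 5 lay below the controls, by 0.88 between the means. With the slide as a fixed block the day 5 difference was 1.11, of the other sign. Days 0 and 5 share no slide, so that value rests on single linking arrays. These are day 1 replicate 1 (-0.96) and day 3 replicate 4 (-3.10, the lowest of all arrays).

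Rps26 followed the slide more closely than the day. On slide 1, day 1 replicate 1 (-0.96) lay among the controls (-1.43 to -0.58), while the other day 1 arrays, on slide 2, lay at -0.30 and 0.29. On slide 3, day 3 replicate 4 (-3.10) lay with day 5 and not with the other day 3 arrays of slide 2 (0.12 and -0.42). On slide 4, day 4 replicate 1 (2.40) lay beside day 2, but the day 4 arrays of slide 5 were also high. Slides took up 97.3% of the variance of Rps26 and days 89.3%. The share between slides had a median of 42.4% over 23142 genes without missing values, and Rps26 ranked 2 among them.

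The mean of days 2 and 4 minus the mean of days 1, 3 and 5 was 3.78 for Rps26. In size this ranked 3 among 23198 genes, for which the median absolute difference was 0.18 and the 99th percentile 1.40. Of the other 77 members, Rpl10l was called higher in this contrast and none lower, where 3.71% of all genes were called higher and 2.16% lower. The median of the members was -0.04. All 6 arrays of the later scan lay above all 12 others for 335 genes (1.44%), 2 of them members. What part the scan day plays cannot be told apart from that of days 2 and 4.

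**Figure D5:**
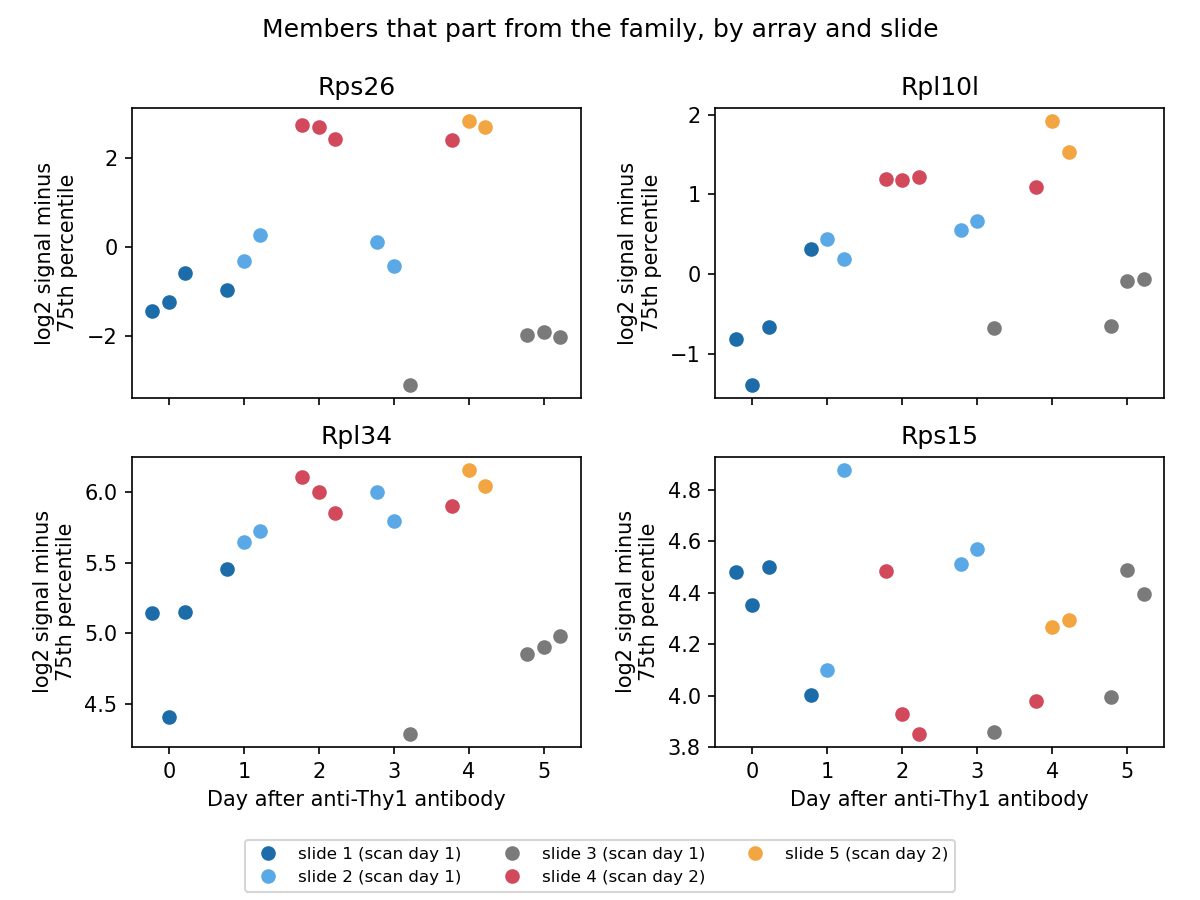
The log2 signal minus the array's 75th percentile (vertical axes, on different ranges) of Rps26, Rpl10l, Rpl34 and Rps15 is drawn for each array by day (horizontal axis), with colours for the slide. Rps26 lies at 2.40 to 2.84 on slides 4 and 5 and at -3.10 to 0.29 on slides 1 to 3.

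After each array's family median was subtracted, the members most like Rps26 were Rpl10l, Rpl34 and Rpl19. Pearson's r with Rps26 over the 18 arrays, which share slides and scan days, was 0.92 for Rpl10l, 0.90 for Rpl34, 0.83 for Rpl19 and 0.81 for Rps27a. Without that subtraction r was 0.86, 0.87, 0.46 and 0.74, so Rpl19 did not keep its place. Rpl34, a large-subunit protein, read 5.14, 4.41 and 5.15 on the controls, 6.11, 6.0 and 5.85 on day 2, 6.0, 5.80 and 4.29 on day 3, 5.90, 6.16 and 6.04 on day 4, and 4.85, 4.90 and 4.98 on day 5. As for Rps26, its day 3 array on slide 3 lay with day 5. Rpl34 rose on day 2 (1.09 ± 0.33, limma adjusted p = 0.01568) and day 4 (1.13 ± 0.33, adjusted p = 0.01059), while day 5 gave 0.01 ± 0.33 (adjusted p = 0.9826). Rps27a, a small-subunit protein made as a fusion with ubiquitin, was added after its values were seen. It read 6.57, 5.82 and 6.40 on the controls, 7.21, 7.09 and 6.95 on day 2, 7.30, 7.16 and 5.99 on day 3, and 6.49, 6.36 and 6.64 on day 5. Its slide 3 array of day 3 was the lowest of that day and overlapped the controls. Rps27a rose on day 2 (0.82 ± 0.29, limma adjusted p = 0.03049) and gave 0.23 ± 0.29 on day 5 (adjusted p = 0.5176). For Rpl19 the mean of days 2 and 4 minus that of days 1, 3 and 5 was 0.13. Across the whole array 103 of 23141 genes had an r of 0.9 or more with Rps26, and Tsg101, an endosomal sorting protein, had the highest among named genes (0.98).

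Probe sequence differed among these members. The Rps26 probe had 26.7% G and C, the lowest of the member probes used (median 45%, highest 55%). The hexamer AATAAA, searched on the probe's own strand, was in 12 of 78 member probes (15.4%) and in 4.58% of all probes used. Its 12 members had a median difference of -0.0032 between days 2 and 4 and days 1, 3 and 5, and the members without it had -0.045. Across the 77 members without Rps26, r between the share of G and C and that difference was -0.31, and over all probes it was -0.34; probes share arrays and labelling.

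Paralogs of ribosomal proteins are copies that in part have restricted expression. Those described here are Rpl10l, Rpl3l, Rpl22l1 and Rpl7l1, as the array names them. Rpl31l20 was also measured, with changes of 0.88 to 1.17. The RefSeq table gives the used probe of Rpl37 the name Rpl37l1 and that of Rpl10l the name Rpl10l1. Rpl10l read -0.82, -1.40 and -0.66 on the controls, 0.32, 0.44 and 0.19 on day 1, and 1.19, 1.18 and 1.22 on day 2. It read 0.55, 0.67 and -0.68 on day 3, 1.10, 1.92 and 1.54 on day 4, and -0.65, -0.09 and -0.06 on day 5. Days 2 and 4 were highest, and the slide 3 array of day 3 overlapped the controls. It rose on days 1 to 4, by 1.27 ± 0.32 on day 1 and 2.47 ± 0.32 on day 4 (limma adjusted p = 0.0001602), and day 5 gave 0.69 ± 0.32 (adjusted p = 0.08596).

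Rpl3l, the striated-muscle form of Rpl3, had another course. It read -3.73, -4.29 and -3.48 on the controls, -2.55, -2.46 and -2.45 on day 1, and -2.66, -2.93 and -3.17 on day 2. It read -2.74, -2.81 and -2.52 on day 3, -3.70, -3.48 and -3.47 on day 4, and -3.43, -3.29 and -3.39 on day 5. Days 1 to 3 lay above all controls and day 4 overlapped them. Rpl3l rose by 1.34 ± 0.19 on day 1 (limma adjusted p = 0.001095), 0.91 ± 0.19 on day 2 and 1.14 ± 0.19 on day 3, and gave 0.28 ± 0.19 on day 4 (adjusted p = 0.2202). With background correction by normexp, days 2 and 3 were below day 0 (-0.25 and -0.028).

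Rpl22l1, the paralog of Rpl22, rose on all 5 days, from 2.27, 1.97 and 2.33 on the controls to 3.22, 3.53 and 3.53 on day 4 (1.24 ± 0.21, limma adjusted p = 0.000401). Rpl7l1, a paralog of Rpl7 in ribosome assembly, read -0.75, -0.65 and -0.68 on the controls and -0.13, -0.37 and -0.22 on day 4. It rose on all 5 days by 0.33 to 0.46, less than the family median. Scaled to the reference genes, its day 4 value was -0.083.

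Other genes of translation moved with the family in the same comparisons, and so did genes outside translation. The 840 other bright genes had daily medians of 0.37 to 0.61. The 11 housekeeping genes, of which 1 fell on each day, had 0.47 to 0.67. Whether the lists below moved beyond such genes was not tested. Counts run over days 1 to 5, followed by the range of the list's daily median change. Over the same days 19.2% to 25.5% of all genes were called higher and 20.7% to 26.7% lower. Of 8 ribosomal proteins with other names, such as Rplp0 and Rpsa, 7, 5, 6, 7 and 8 rose and none fell (medians 0.51 to 0.69). Rack1, a scaffold on the small subunit, rose by 1.21 ± 0.20 on day 5, and Rpsa by 1.04 ± 0.14 (limma adjusted p = 0.0006851). Of 30 translation factors, 20, 21, 18, 22 and 22 rose and none fell (medians 0.51 to 0.66). Eif2s1, the regulated subunit of the factor that brings the first transfer RNA, rose by 1.64 ± 0.26 on day 4, and Eif3h by 1.52 ± 0.13.

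Ribosome assembly genes rose in 25, 21, 24, 27 and 25 of 42 cases, with 0, 2, 1, 1 and 0 falling (medians 0.48 to 0.67). Nhp2, a protein of the particles that modify ribosomal RNA, rose by 1.45 ± 0.30 on day 4 and Nmd3, the export adaptor of the large subunit, by 1.37 ± 0.20. RNA polymerase I genes, which transcribe ribosomal RNA, rose in 7, 7, 9, 9 and 9 of 13 cases with none falling (medians 0.50 to 0.76). Polr1b, its second largest subunit, rose by 0.95 ± 0.21 on day 3. Mitochondrial ribosomal proteins rose in 53, 36, 44, 55 and 53 of 68 cases, with 0, 0, 1, 1 and 0 falling (medians 0.46 to 0.80). Mrpl40 rose by 2.00 ± 0.35 on day 4.

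Genes with S6 kinase names (Rps6k) rose in 2, 3, 4, 3 and 4 of 7 cases and none fell (medians 0.23 to 0.54). The list goes by name, whether or not a kinase acts on Rps6. Among them, Rps6ka5 rose by 1.55 ± 0.35 on day 3. Of 15 genes of TOR and Myc regulation, 2 rose on each day and 2, 4, 3, 5 and 3 fell (medians -0.19 to 0.08). The 2 that rose are a smaller share than that of all genes called higher on each day, and the share that fell lay around that of all genes called lower. Eif4ebp1, a translation repressor that TOR inactivates, rose by 1.90 ± 0.44 on day 4 (limma adjusted p = 0.002765). Mlst8, a TOR complex subunit, fell by 1.03 (SE 0.32, adjusted p = 0.01339), and Mxd1, an antagonist of Myc, fell by 1.02 (SE 0.27, adjusted p = 0.006443).

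Cell type markers changed in the same comparisons. Of 19 macrophage markers 13, 16, 17, 6 and 2 rose (medians 1.73, 2.31, 2.89, 1.23 and 0.89), and their mean level per array was -0.71 to 0.29 on the controls, 2.50 to 2.92 on day 3 and -0.19 to 2.16 on day 5. Lymphocyte and NK cell markers rose in 3, 9, 10, 0 and 1 of 12 cases (day 5 median 1.04), and granulocyte markers in 4, 2, 1, 0 and 3 of 4 (day 5 median 2.26). Over these days 19.2% to 25.5% of all genes were called higher, with 20.9% on day 5. The 2 macrophage markers and 1 lymphocyte marker called on day 5 are smaller shares than that. Of 12 mesangial markers 5, 4, 2, 1 and 1 fell and 0, 0, 1, 3 and 1 rose, with medians of -0.70, -0.67, -0.04, 0.41 and 0.32, where 20.7% to 26.7% of all genes were called lower. Thy1 itself fell by 3.25 on day 1 (SE 0.59, limma adjusted p = 0.002606). Podocyte markers, the defining genes of the glomerulus, had mean levels of 2.53 to 2.63 on the controls, and proximal tubule markers were also present, at 4.40 to 4.59. The part of infiltrating cells in the family's rise was not tested.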

How the data were processed

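RNA from rat glomeruli was measured on 18 single-colour Agilent arrays. Per the file headers, the authors' intensity values came from Feature Extraction 10.7.3.1 (build rn4) as background-subtracted, detrended processed signals, not scaled between arrays; mean and local background intensities served for normexp (offset 50). The authors' series-wide table, deposited as log2 values by steps not stated in these sources, served as an alternative only; within days 0, 2 and 4 (median 5.489535), and within days 1, 3 and 5 (5.309067), its columns share quantiles and follow the arrays' processed signals in rank, so no centring by gene was seen.

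The processed signal was taken as log2 minus the array's 75th percentile, without control spots and outlier flags. Of 41012 probes, 27836 were well above background on all 3 arrays of at least 1 day. Each gene name was represented by its brightest probe, under the name given in the files. One limma model (version 3.58.1, R 4.3.3) held all 6 groups, read with the package data.table (version 1.17.8), with Benjamini-Hochberg adjustment over all genes and a threshold of 0.05; the script was tested on simulated data. The number of arrays limits the precision.

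Members and gene lists were chosen with earlier results of these data known. Named genes were Rps26; up to 4 largest rises and falls per day; paralogs; the 5 members furthest from the family median; the 3 most like Rps26; members whose probes differ in sign; and up to 3 called genes of each other list, of which a part is printed. One named member is not reported here. The other marker lists gave these counts over days 1 to 5: podocyte markers rose in 1, 1, 1, 2 and 2 and fell in 4, 3, 4, 5 and 4 of 17; endothelial markers rose in 1, 1, 1, 0 and 0 and fell in 4, 3, 3, 5 and 4 of 15; proximal tubule markers rose in 0, 0, 0, 2 and 0 and fell in 2, 2, 3, 2 and 4 of 16; distal tubule markers rose in 0, 0, 0, 1 and 2 and fell in 1, 1, 3, 2 and 1 of 13; red cell genes fell in 0, 0, 0, 1 and 1 of 5. Over the same days 19.2% to 25.5% of all genes were called higher and 20.7% to 26.7% lower. Replicate numbers did not pair the arrays: of 27 same-numbered pairs, 8 correlated above 0.1. Alternatives changed the scaling, background correction, filter, probe choice, names, blocks and arrays.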

Additional observations from a re-analysis of the deposited data

Results flagged for a closer look

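Rps26 was above all controls on days 2 and 4 (differences of 3.71 and 3.73 from day 0, in log2 signal) and below all controls on day 5 (-0.88), so its arrays moved in opposite directions; its values carry no test, so this difference was not tested. With the slide as a fixed block the day 5 difference was 1.11. That value rests on day 1 replicate 1 and day 3 replicate 4, the single arrays that link the slides. Rpl10l was higher on days 2 and 4 than on days 1, 3 and 5 by 1.28 (SE 0.20, limma adjusted p = 0.002207), with the 6 arrays of the later scan above the 12 of the earlier one. With 3 arrays per day, single arrays were not tested as outliers.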

How the results depend on the processing

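In the reported setting 63, 60, 67, 72 and 65 members rose on days 1 to 5, and the F-test called 65. Scaled to the array median, 76, 77, 76, 77 and 74 rose. Scaled to the reference genes, the counts were 19, 25, 43, 27 and 40 (F-test 26), and the contrast of days 2 and 4 with days 1, 3 and 5 called 6 members in place of 2 (counts that include Rps26, whose own values carry no test). Quantile normalization gave 17, 27, 46, 32 and 27 (F-test 24). Scaled to the members themselves, 5, 10, 13, 17 and 15 departed from the family median (F-test 11); single members and medians are another quantity on that scale and were not set beside the reported ones. Normexp background correction gave 0, 4, 5, 14 and 0 (F-test 2). With the background capped at a high percentile, a choice made after seeing the data, it gave 72, 74, 73, 76 and 68, and 4 members in the contrast of days 2 and 4. With the arrays of the compared days alone, which leaves fewer arrays to estimate the spread, 14, 41, 41, 47 and 21 were called. With the slide as a fixed block, 12 were called on day 1, 9 on day 3 and 0 on day 5, with median changes of 0.59, 0.83 and 1.09. Only day 1 replicate 1 shares a slide with the controls, so days 3 and 5 are linked to them through other days. Days 2 and 4 have no such link. The value table within its sets gave 16 on day 2 and 22 on day 4. The replicate block, whose numbers do not pair the arrays, gave 67, 54, 66, 65 and 62 (F-test 51). Leaving out 1 array at a time gave 30 to 68 on day 1, 33 to 66 on day 2, 56 to 74 on day 3, 57 to 72 on day 4, 45 to 67 on day 5 and 33 to 69 for the F-test; the contrast of days 2 and 4 gave 2 to 4, day 5 against day 1 gave 0 to 1, and day 3 against day 1 and day 4 against day 2 gave 0. Without control replicate 4 the counts were 30, 33, 58, 57 and 45, and without day 1 replicate 4 day 1 had 35. The share of all genes called under each alternative is not given beside these counts. The cause of the differences between settings was not tested.

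Rps26 on day 3 was 0.34 scaled to the median, 0.14 after quantile normalization and 0.0064 with capped normexp; it ranged from -0.68 to 0.93 when 1 array was left out. Rps26 on day 5 was 1.11 with the slide as a fixed block, a value that rests on the linking arrays named above. Rps15 scaled to the median was 0.21, 0.015, 0.26, 0.14 and 0.27 on days 1 to 5, 0.011 on day 3 with capped normexp, 0.045 on day 5 with the slide block and 0.026 on day 1 with the replicate block; leaving out 1 array gave -0.39 to 0.046 on day 1 and -0.26 to 0.098 on day 3. Rpl3l was -0.26 on day 4 with the reference genes, -0.25, -0.028 and -0.50 on days 2 to 4 with normexp, and -0.20, -0.066, -0.51 and -0.21 on days 2 to 5 with capped normexp. Rpl7l1 was -0.083 on day 4 with the reference genes. Rpl34 on day 5 was -0.29 with the reference genes, -0.41 after quantile normalization, -0.42 with normexp, -0.016 with a random slide block and -0.24 to 0.13 when 1 array was left out. Averaged over their probes, which differ in sign, Rpl37 was -0.65, -0.98, -0.83, -0.98 and -0.74 and Rps25 was -0.17, -0.30, -0.31, -0.28 and -0.23; with updated names, which leave only the dimmer probe under Rpl37, it was -2.04, -2.64, -2.55, -2.74 and -2.38.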
